A study of Mus musculus with 2 samples.

Results

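The genes described here encode 9 transcription factors that are enriched in the liver: Hnf4a, Foxa1, Foxa2, Foxa3, Onecut1, Onecut2, Cebpa, Cebpb and Prox1. The data are GATA4 occupied sites (OS), regions where DNA bound by the transcription factor GATA4 was enriched over input DNA. An OS was assigned to a gene when its midpoint lay in the gene body or within 50 kb of it. By this rule 9 of 4409 OS were at these genes, and they fell at 5 of the 9.

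Hepatocyte genes are controlled by a small set of factors that bind one another's genes as well as their targets. HNF4A is a nuclear receptor, FOXA1, FOXA2 and FOXA3 are forkhead proteins that open chromatin, ONECUT1 and ONECUT2 are cut-homeodomain proteins, CEBPA and CEBPB are basic leucine zipper proteins, and PROX1 is a homeodomain protein. GATA4 is a zinc finger factor of early liver formation that is still present in the adult organ, and it binds the motif WGATAR, in which W is A or T and R is A or G.

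GATA4 was immunoprecipitated from whole liver of C57BL/6 x Sv129 mice aged 2 to 3 months after birth, with the C-20 antibody, and the control was input DNA from liver of the same strain and age without antibody. Peaks were called with SPP and with MACS2, and the 4409 OS of the common list were taken from both. The lists hold 1 ChIP sample without read counts, and each OS carries the same display score of 1000, so the values below have no replicate error, no depth and no test, and occupancy is described by presence, position and the number of the OS in its list. Whole liver holds all its cell types, so the lists by themselves do not place an OS in hepatocytes or in another cell type, and peak positions give no marker level by which to check the tissue.

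The sequences of 7 of the 9 OS are shown because they are the regions on which the results for Hnf4a, Cebpa and Cebpb rest. They are read from the plus strand of mm9, 5′ to 3′. Capitals mark WGATAR on either strand, and in the distal OS of Hnf4a and of Cebpa, which lack WGATAR, they mark the 4 letters GATA on either strand. The sequences lie, in order, at chr2:163381241-163381404, chr2:163421767-163421959, chr7:35901597-35901789, chr7:35908655-35908864, chr7:35953186-35953320, chr2:167513221-167513477 and chr2:167517430-167517597.
Hnf4a intronic OS: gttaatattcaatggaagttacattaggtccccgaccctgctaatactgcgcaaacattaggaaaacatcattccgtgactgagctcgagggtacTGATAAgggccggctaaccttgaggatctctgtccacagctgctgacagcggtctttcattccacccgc
Hnf4a distal OS: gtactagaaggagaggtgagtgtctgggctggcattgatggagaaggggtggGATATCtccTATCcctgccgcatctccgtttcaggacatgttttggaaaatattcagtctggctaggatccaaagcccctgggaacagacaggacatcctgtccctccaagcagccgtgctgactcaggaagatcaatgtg
Cebpa upstream OS: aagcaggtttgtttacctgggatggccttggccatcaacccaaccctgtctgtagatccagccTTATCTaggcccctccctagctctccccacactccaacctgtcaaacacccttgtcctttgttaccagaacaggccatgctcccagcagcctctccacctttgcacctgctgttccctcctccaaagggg
Cebpa downstream OS: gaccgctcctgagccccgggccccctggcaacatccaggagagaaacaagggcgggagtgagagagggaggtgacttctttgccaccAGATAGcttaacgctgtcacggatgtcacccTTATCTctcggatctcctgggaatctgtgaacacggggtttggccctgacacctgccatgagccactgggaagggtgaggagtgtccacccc
Cebpa distal OS: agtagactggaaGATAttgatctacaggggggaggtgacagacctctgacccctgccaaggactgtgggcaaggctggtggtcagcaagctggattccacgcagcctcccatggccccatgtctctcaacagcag
Cebpb upstream OS: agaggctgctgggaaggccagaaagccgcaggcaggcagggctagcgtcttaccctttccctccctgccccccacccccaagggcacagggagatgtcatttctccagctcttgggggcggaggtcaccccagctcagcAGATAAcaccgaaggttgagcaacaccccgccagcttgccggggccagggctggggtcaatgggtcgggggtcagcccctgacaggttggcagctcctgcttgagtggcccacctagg
Cebpb downstream OS: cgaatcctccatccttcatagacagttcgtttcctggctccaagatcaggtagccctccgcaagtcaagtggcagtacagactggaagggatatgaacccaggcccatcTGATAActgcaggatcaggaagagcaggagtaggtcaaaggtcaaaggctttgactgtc
Each of the 7 held the letters GATA on at least 1 strand. So short a word is common: even the longer WGATA or GATAR was in 54.9% of equally wide windows 5000 bp to the right of all OS. To the left it was in 53.9%. The Cebpa downstream OS was the one with a pair of WGATAR matches, 25 bases apart and on opposite strands.

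The genes encoding C/EBP proteins, HNF4A, ONECUT2 and PROX1 had OS, whereas the 3 Foxa genes and Onecut1 had none within 50 kb. At least 1 OS was found at 5 of 9 genes (55.6%), against 27.7% of the 22380 protein-coding genes of the annotation. At least 2 OS were found at Cebpa, Cebpb and Hnf4a, 3 of 9 genes (33.3%), against 9.15% of protein-coding genes. Cebpa had 3 OS, as many as or more than which were found at 3.24% of protein-coding genes. Within 5 kb of a transcription start site (TSS) of the gene, OS were found at Cebpa, Cebpb and Onecut2, 3 of 9, against 6.38%, a distance chosen after the data were seen. The windows searched were similar in size, with a median of 110 kb for the 9 genes and 115 kb for protein-coding genes. With 9 genes and 1 sample, these shares describe the lists and carry no test. The 9 genes were chosen with earlier results of these data known, so the shares are no independent comparison.

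**Figure D1:**
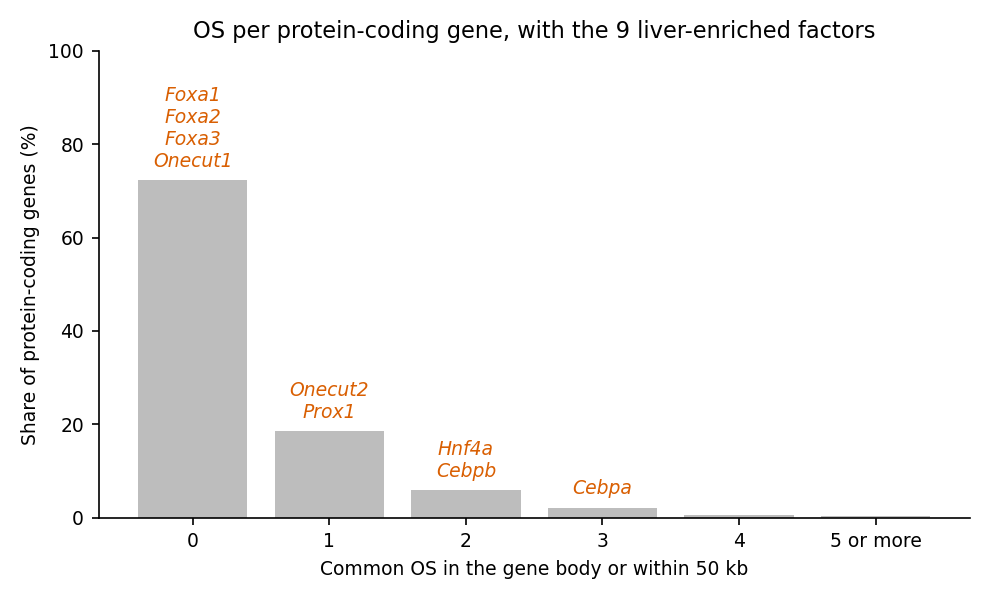
Share of the 22380 protein-coding genes (vertical axis, %) by the number of common OS in the gene body or within 50 kb (horizontal axis), with the names of the 9 factors written above the bar of their own count. Foxa1, Foxa2, Foxa3 and Onecut1 stand with the 72.3% of genes that have 0 OS, and Cebpa stands with the 2.20% that have 3.

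Hnf4a (ENSMUSG00000017950, chr2:163332544-163398646, plus strand) encodes the nuclear receptor that keeps many hepatocyte genes active, and it is transcribed from a proximal and a distal promoter. It had 2 OS. The intronic OS was number 1513 of the common list, 1525 of the SPP list and 1585 of the MACS2 list, and it lay in intron 3 or 4, depending on the transcript. Its midpoint was 48.8 kb downstream of the 5′ end of the gene, 8.40 kb downstream of the start at chr2:163372923 and 5.50 kb downstream of the nearest annotated start of a transcript. It was nearer to this start than to that of any other protein-coding gene. The distal OS was number 993 of the common list and 939 of the MACS2 list, and it was intergenic, 23.2 kb past the 3′ end of Hnf4a. The nearest TSS to the distal OS was that of Ttpal, at 6.19 kb, so it is at Hnf4a by the distance rule and nearer to another gene.

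A further Hnf4a peak, at chr2:163366293-163366951, was in the MACS2 list alone, as number 3178 of 5867. It held 2 WGATAR matches in an intron of Hnf4a and lay 34.1 kb from the 5′ end and 3.87 kb from the nearest annotated start of an Hnf4a transcript. None of the 3 peaks covered the distal promoter or the start at chr2:163372923. The nearest of them to the distal promoter was the MACS2 peak. The primer pairs with which the study measured GATA4 ChIP by quantitative PCR at Hnf4a were placed on mm9. The pair named for the end of HNF4a gave 1 exact product, chr2:163381344-163381394, which lay inside the intronic OS. For the pair named for the HNF4a promoter the forward primer alone matched, at chr2:163332504-163332522, 48.7 kb from the nearest common OS and 33.8 kb from the nearest MACS2 peak. These distances give positions in the lists and not occupancy, since the ChIP-qPCR values at these primers were not analysed here.

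Cebpa (ENSMUSG00000034957, chr7:35904312-35906945, plus strand) encodes the C/EBP protein that promotes metabolic genes and restrains division of hepatocytes, and it had the most OS of the 9 genes. The upstream OS was number 1450 of the common list and 1153 of the MACS2 list, with its midpoint 2.62 kb before the TSS. The downstream OS was number 1034 of the common list and 931 of the MACS2 list, 4.45 kb past the TSS and 1.81 kb past the 3′ end of the gene. These OS flank the gene, and neither overlaps it. The distal OS was number 1876 of the common list and 1989 of the MACS2 list, 48.9 kb past the TSS and 46.3 kb past the gene, and it was nearer to the TSS of Slc7a10, at 18.2 kb. A further peak at Cebpa was in the MACS2 list alone, as number 4839, and lay 6.72 kb upstream at chr7:35897416-35897759.

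Cebpb (ENSMUSG00000056501, chr2:167514415-167515918, plus strand) encodes the C/EBP protein of the acute phase response and of liver regeneration. Its upstream OS held the foremost place of the 9, number 247 of the common list, 251 of the SPP list and 60 of the MACS2 list. This OS lay 1.07 kb before the TSS of Cebpb, in intron 1 of the neighbouring gene Tmem189, and was the closest of the 9 OS to a TSS of its own gene. The downstream OS of Cebpb was number 2160 of the common list and 1656 of the MACS2 list. It lay 3.10 kb past the TSS and 1.59 kb past the 3′ end, in intron 1 of the transcript A530013C23Rik, and the nearest TSS of a protein-coding gene was that of Tmem189, at 2.19 kb. As at Cebpa, both OS flanked the gene and neither overlapped it, and the MACS2 list held no further peak there.

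Prox1 (ENSMUSG00000010175, chr1:191945660-191994559, minus strand) encodes a homeodomain protein of hepatoblast migration and of lymphatic vessels. It had 1 common OS. MACS2 alone called 2 more peaks. One was number 3150, 3.90 kb upstream of the TSS at chr1:191998094-191998833, and held 3 WGATAR matches. The other was number 5836, close to the end of that list, at chr1:191929880-191930286 past the 3′ end of the gene.

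Foxa1 (ENSMUSG00000035451, chr12:58641618-58647108, minus strand), Foxa2 (ENSMUSG00000037025, chr2:147868613-147872705, minus strand) and Foxa3 (ENSMUSG00000040891, chr7:19598631-19608887, minus strand) encode the forkhead proteins that give other factors access to liver chromatin. None of them had a common OS or an SPP peak within 50 kb. The nearest common OS was 93.3 kb from Foxa1, as number 2180 of the list, 98.3 kb from Foxa2, as number 2555, and 212 kb from Foxa3, as number 3113. At Foxa1 the MACS2 list held 1 peak, number 5519 of 5867, at chr12:58647438-58648158, with its midpoint 690 bp upstream of the TSS. It had 2 WGATAR matches, and no peak of SPP overlapped it. Foxa2 and Foxa3 had no peak of any list.

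The stretches around the WGATAR matches of the MACS2 peaks at Foxa1 and Prox1 are shown because, of the peaks in the MACS2 list alone, they are the nearest upstream of the TSS of their gene. They lie at chr12:58647857-58648074 and chr1:191998520-191998679 of mm9, on the plus strand, with WGATAR on either strand in capitals.
Foxa1 MACS2 peak: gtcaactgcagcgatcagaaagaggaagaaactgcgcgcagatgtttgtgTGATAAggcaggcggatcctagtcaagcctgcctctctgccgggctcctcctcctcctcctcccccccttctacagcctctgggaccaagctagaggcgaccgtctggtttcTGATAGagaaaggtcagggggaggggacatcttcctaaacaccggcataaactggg
Prox1 MACS2 peak: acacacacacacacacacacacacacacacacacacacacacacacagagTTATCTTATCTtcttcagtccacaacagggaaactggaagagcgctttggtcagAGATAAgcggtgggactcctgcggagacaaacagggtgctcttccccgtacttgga
In the Prox1 stretch, 2 of the 3 matches overlap each other and follow a run of the dinucleotide CA. In the Foxa1 stretch both matches are on the plus strand.

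With the MACS2 list, peaks were found at 6 of 9 genes (66.7%), Foxa1 being the addition, against 33.9% of protein-coding genes. Of the 16 MACS2 peaks at the 9 genes, 7 had no overlapping SPP peak (43.8%), against 1496 of all 5867 MACS2 peaks (25.5%). These 7 peaks held numbers 3150 to 5836 of the MACS2 list, with a median of 4839, against a median of 4797 for all MACS2 peaks without an SPP peak. The MACS2 peaks under the 9 common OS had lower numbers, from 60 to 2710, and at these genes the ranges do not overlap. Over the full lists the median was also lower under the common OS, at 2195. There the ranges are not separate in the same way, since many other common OS lay on MACS2 peaks with numbers above 3150. Each of the 7 peaks held WGATAR, but they were 344 to 811 bp wide, and the share among all MACS2 peaks was not computed. Windows of 500 bp shifted by 5000 bp from all 4409 OS held WGATAR in 2645 cases to the right and 2641 to the left. Those windows differ from the 7 peaks in place and width. The count of 7 is a description, and whether it exceeds that of other sequence of such width was not tested.

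Onecut1 (ENSMUSG00000043013, chr9:74709728-74737591, plus strand), which encodes the factor also called HNF6 that acts in bile duct formation, had no peak of any list within 50 kb. The nearest common OS was number 2387, 68.2 kb upstream, and no other protein-coding gene had a TSS closer to it. For the study's primer pair named for the HNF6 body the forward primer alone matched, at chr9:74714682-74714701, 73.0 kb from the nearest peak of the common list and of the MACS2 list, and here too the ChIP-qPCR values were not analysed. Its relative Onecut2 (ENSMUSG00000045991, chr18:64500002-64560641, plus strand) had 1 common OS at chr18:64502066-64502170, 2.08 kb downstream of the nearest TSS in intron 1 or 2. This OS stood near the end of the common list, at number 4216, and in the middle of the MACS2 list, at number 2710. MACS2 alone called 2 further peaks in the introns of Onecut2, number 4101 with 5 WGATAR matches and number 5258 with 2.

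**Figure D2:**
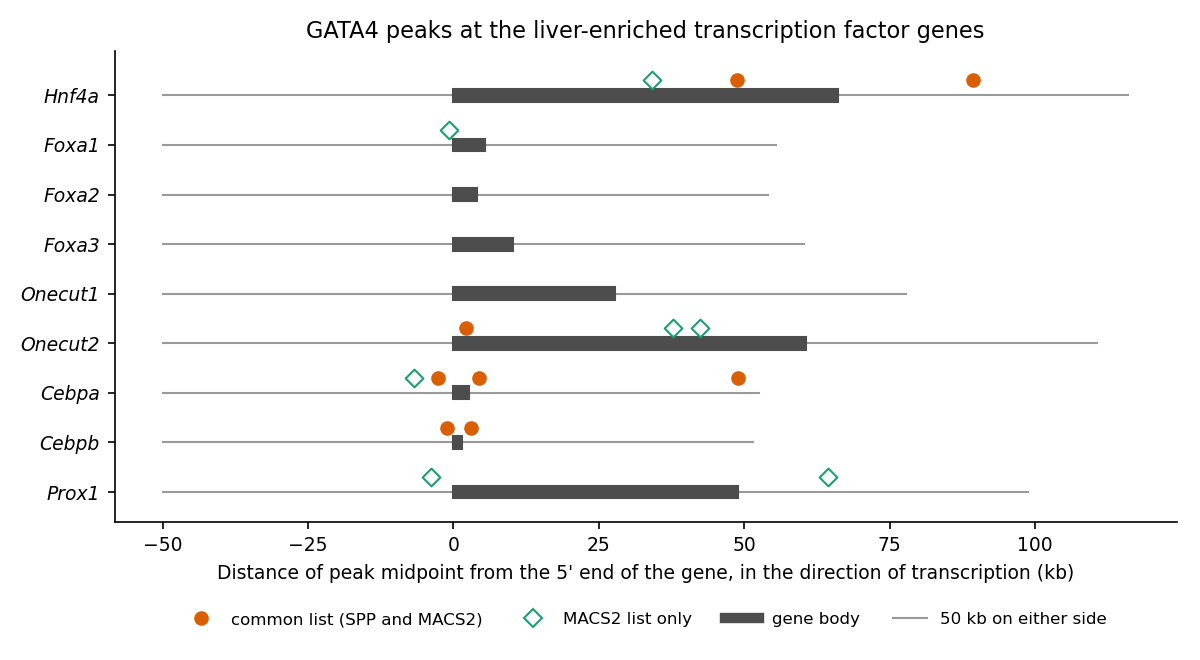
Midpoints of GATA4 peaks at the 9 genes by their distance from the 5′ end of the gene in the direction of transcription (kb), with gene bodies as dark bars, the 50 kb on either side as lines, common OS as filled circles and peaks of the MACS2 list alone as open diamonds. The common OS of Prox1 is not drawn. The OS of Cebpa and Cebpb closest to the gene stand on both sides of it, and the lines of Foxa2, Foxa3 and Onecut1 are empty.

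The reach of 50 kb decided which genes were counted. Of the 9 OS, 2 were in a gene body, at Hnf4a and Onecut2, and 7 were outside, up to the Cebpa distal OS at 46.3 kb. Just past the reach were the OS 68.2 kb from Onecut1, 68.9 kb and 93.5 kb from Cebpa, 70.0 kb from Hnf4a, 88.2 kb from Onecut2, 93.3 kb from Foxa1 and 98.3 kb from Foxa2. Counted up to 100 kb, 8 of 9 genes had an OS, against 40.0% of protein-coding genes, and Foxa3 was the exception. The added OS at Onecut1, Foxa1 and Foxa2 were nearest to the TSS of that same gene. Those at Hnf4a, Onecut2 and Cebpa were nearest to 0610039K10Rik, Fech, Cebpg and Lrp3. Within 50 kb, 6 of the 9 OS were nearer to a TSS of the factor itself than to one of another protein-coding gene. The matching shares of OS, by nearest TSS and by gene body, were not computed over all protein-coding genes. These counts are therefore descriptions.

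In the common list the 9 OS stood at a median number of 1513, against 2205 for all 4409, and 7 of the 9 were among the first 2204. In the MACS2 list their median number was 1585, against 2195 for the peaks under all common OS. The foremost, the Cebpb upstream OS, had 246 OS ahead of it. The order stands for strength only if the lists are sorted, which the lists do not state. By the study's methods, sorting used the signal value for SPP and the p-value for MACS2. Onecut2 had the largest gap between its places, 95.6% of the way down the common list and 46.2% down the MACS2 list. Widths ran from 102 bp to 257 bp and had a median of 168 bp, against 190 bp for all OS. None had the width of 320 bp that 25.6% of all OS share.

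**Figure D3:**
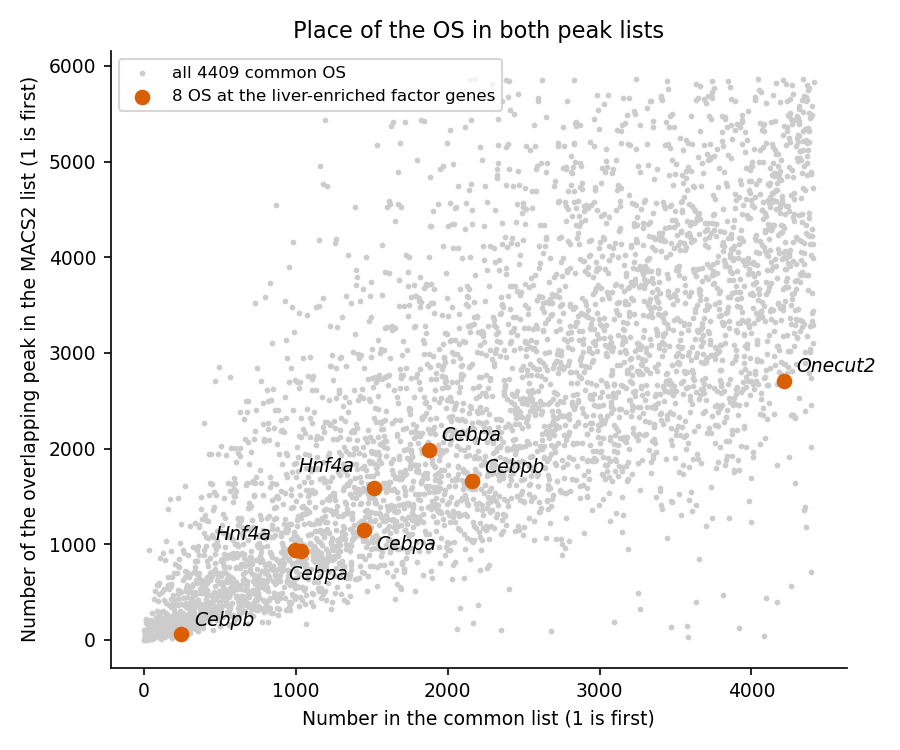
Number of each OS in the common list (horizontal axis) against the number of the overlapping peak in the MACS2 list (vertical axis), with all 4409 OS in grey and 8 of the 9 OS at the liver-enriched factor genes in orange. The Cebpb upstream OS, at 247 and 60, is nearest to the origin, and the Onecut2 OS, at 4216 and 2710, is farthest to the right.

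WGATAR, that is AGATAA or AGATAG or TGATAA or TGATAG on either strand, was found in 7 of the 9 OS (77.8%, Wilson 95% interval 45.3 to 93.7%), against 82.9% of all OS. In equally wide windows shifted by 5000 bp to the right it was found in 5 of 9, against 31.9% for all OS, and in those shifted as far to the left in 2 of 9, against 31.4%. The interval covers counting error only. The 8 matches lay 5.5 to 30.5 bp from the midpoint of their OS, with a median of 16 bp, against 27.5 bp in all OS. The Hnf4a and Cebpa distal OS lacked WGATAR, and both held the shorter WGATA or GATAR, which was in 9 of 9 OS and in 92.9% of all OS. Most copies of the motif at these genes were outside the OS. The windows of the 9 genes held 2122 matches, of which 8 (0.377%) were in a common OS. Of the 6752563 matches in the whole genome, sequence far from genes included, 0.0849% were. The share over the windows of all protein-coding genes was not computed, so these shares do not compare like with like. The 4 genes without an OS had 129 to 300 matches in their windows, and those with an OS had 122 to 384. Across the 9 windows there were 11.7 to 23.9 matches in 10 kb, against a median of 21.7 for protein-coding genes.

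Motifs of the factors themselves were looked for in the 9 OS on both strands. The forkhead motif, TGTTTAC or TATTTAC or TGTTTGC or TATTTGC, was in 2 of 9 OS, against 16.7% of all OS. It was in 0 of 9 windows to the right, against 12.6% for all OS, and in 1 of 9 to the left, against 11.3%. One match was in the Hnf4a intronic OS, with 38 bases between it and WGATAR, and the other was in the Cebpa upstream OS, with 47 bases between. The C/EBP motif TTGCNNAA was in 1 of 9, against 12.7% of all OS. That match was in the Cebpb upstream OS, 9 bases from WGATAR. The HNF4 motif CAAAGTCCA was in 0 of 9, against 1.16% of all OS.

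The onecut motif, ATCAAT or ATCGAT, was in 2 of 9 OS, against 8.26% of all OS. It was in 0 of 9 windows to the right and in 1 of 9 to the left. Of all 4409 OS, 364 held it, against 399 of the windows to the right and 335 to the left. In 500 bp around the midpoint it was in 3 of the 9 OS, in 2 of 9 windows to the right and in 3 of 9 to the left. These counts show no excess of the motif in the OS over nearby sequence. Both OS with the motif were distal OS without WGATAR: the one of Hnf4a held 2 matches, and in the one of Cebpa the match overlaps the letters GATA. Of all OS without WGATAR, 5.84% held the motif, and of those with WGATAR 8.76%, in which ATCAAT can overlap WGATAR. Reading the sequences brought up a further motif, 2 copies of AGGTCA in the same direction with 1 base between, the kind of repeat that nuclear receptors bind. It was in the Cebpb downstream OS and in 5 of all 4409 OS (0.113%), and a second copy lay 14 bp outside the Cebpa distal OS. Since it was chosen after these sequences were seen, its presence here is a description.

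**Figure D4:**
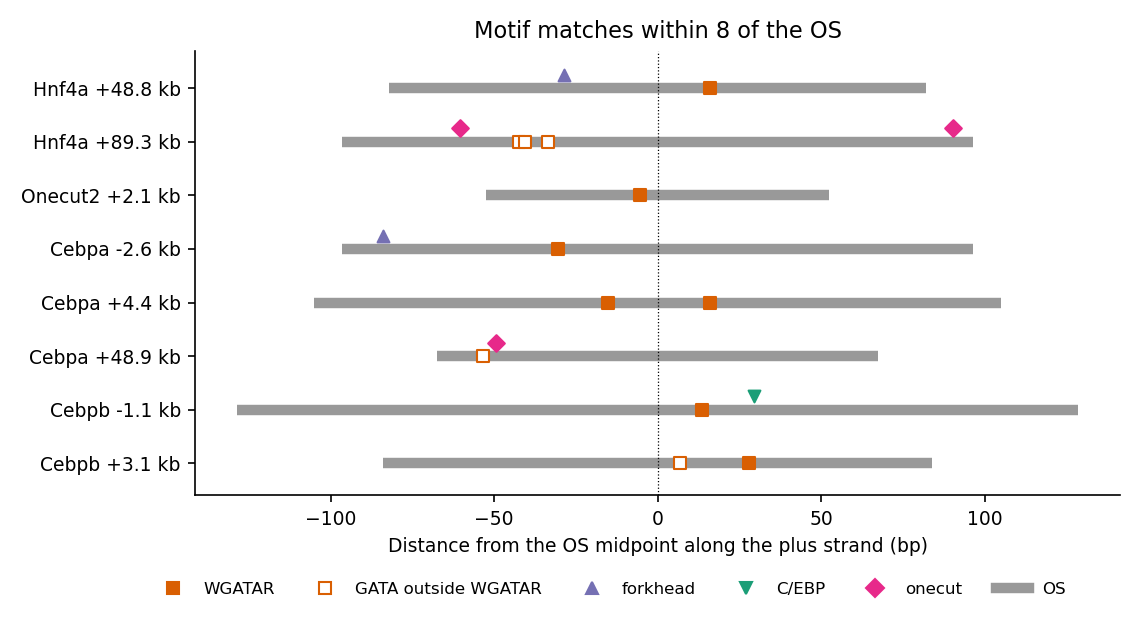
Motif matches by their distance from the OS midpoint along the plus strand (bp), with 1 grey bar for the width of each of 8 OS, named by its gene and its distance in kb from the 5′ end of the gene. Filled squares are WGATAR, open squares are GATA outside WGATAR, and triangles and diamonds are the forkhead, C/EBP and onecut motifs. The filled squares lie within 30.5 bp of the midpoints, and the 2 OS without one carry the onecut matches.

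Other regulators of hepatocyte genes, among them Gata4 and Gata6 themselves, were counted in the same way. Like the 9 factors, this list and that of the paralogues were chosen with earlier results of these data known. Their shares are no independent comparison. Of 14 such genes, 12 had a common OS (85.7%), against 27.7% of protein-coding genes, with 22 OS among them, and Tbx3 and Zhx2 had none. The most were at Nr5a2, the nuclear receptor of bile acid synthesis genes, with 4 OS, and at Rxra, the shared partner of nuclear receptors, and Creb3l3, a membrane-bound factor of the fasting response, with 3 each. Of 7 paralogues of the 9 factors, 3 had a common OS (42.9%), against the same 27.7%. These were Onecut3 and Ddit3 with 2 each and Cebpg, which lies next to Cebpa, with 1. Beside the 55.6% of the 9 factors, these shares are descriptions of short lists.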

How the data were processed

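GATA4 ChIP and input DNA of liver were sequenced, and peak lists of the ChIP sample were deposited. By the study's methods both biological replicates were combined in these lists through irreproducible discovery rate analysis. Bowtie 0.12.7, MACS2 2.0.10 and bedtools 2.16.1 are named in the submitters' processing notes, with mm9. The deposited lists hold 4409 common, 4811 SPP and 5867 MACS2 peaks, each with a position, a number and a display score that the authors set to 1000 throughout, so no strength, depth or error can be had. Input DNA enters through peak calling alone.

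Peak midpoints were set against GENCODE M1 gene bodies and TSSs (37310 genes by gene ID) with pandas 2.3.3 and numpy 2.4.6, and motifs were read from mm9 with pysam 0.24.0. Counting was tested on simulated data, with 2400 of 2400 gene counts and 1200 of 1200 sequences right. The factors, the lists of other regulators and paralogues and the motifs were chosen with earlier results of these data known. The common OS of Prox1 enters the counts and is otherwise not reported here. All 9 factors were named, and of other lists the 3 genes with the most OS, the rest being named where a count was small or an OS lay nearer to them. The transcript annotation has Cebpd as a pseudogene, which was kept among the paralogues. Primer letters were taken from page images, so a primer without a match may be a misread one.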

Additional observations from a re-analysis of the deposited data

How the results depend on the processing

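Of 60 recomputed values, 38 stayed within 1.5 times the count, the 95% interval of the share or the range between the quartiles of the list numbers, and 22 moved. The 38 include the motif counts set beside windows to the left. There the count in the OS is the main one again, so it could not move. The number of OS at the factor genes, of genes with an OS and the share of protein-coding genes with one were 2, 2 and 7.67% in the gene body alone, 16, 8 and 40.0% at 100 kb, and 5, 3 and 6.38% within 5 kb of a TSS, the last chosen after the data were seen. In further settings only the share of protein-coding genes moved by the limits above. It was 13.7% at 10 kb, with 6 OS at 4 factor genes, and 19.3% at 25 kb, with 7 OS at 4. It was 29.2% with SPP peaks and 24.5% within 50 kb of a TSS, each with 9 peaks at 5 factor genes. With MACS2 peaks there were 16 peaks and 33.9% of genes, and in the first 2204 OS 3 factor genes and 16.0%. WGATAR was in 6 of the 6 OS within 10 kb (100%), a reach that leaves out the Hnf4a and Cebpa distal OS, which lack it. WGATA or GATAR was in 100% of the 9. In 500 bp around the midpoint the forkhead motif was in 4 of the 9 OS (44.4%), against 32.2% of all OS, and the C/EBP motif in 2 (22.2%), against 23.7%, and the AGGTCA repeat, added after the data were seen, was in 1 where the HNF4 motif was in 0. Nearest TSS, list numbers and both comparison lists did not move.

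No paired analysis was possible because there is 1 ChIP sample, and leaving out a replicate was not possible either. The lists give no depth, so absence from a list is not absence of occupancy, and each statement holds for these lists alone.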
